A study of Mus musculus with 5 samples.

Results

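The sites described here are the PU.1 summits of Th9 cells that coincided with an Input summit and not with a BATF summit. They were chosen by the measured positions of 3 peak lists: a PU.1 summit on chromosomes 1 to 19 or X was taken when an Input summit lay within 500 bp and no BATF summit did. This gave 1865 sites, which is 21.3% of the 8759 PU.1 summits on these chromosomes and part of a PU.1 list of 8947. The libraries came from ChIP-Seq, in which DNA fragments pulled out of sheared chromatin by an antibody are sequenced, and positions with a surplus of them are listed as peaks. Th9 cells, T helper cells known for IL-9, were made from naive CD4 T cells of spleen and lymph nodes of 7-week-old WT C57/Bl6j mice. They were stimulated through CD3 and CD28 with IL-4 (20 ng/ml), TGF-β (2 ng/ml) and antibody against IFNγ, for a few hours by the labels, while the publication states another duration. Antibodies against PU.1 and BATF, control immunoglobulins of goat and rabbit, and Input gave 1 library each, all from these cells, without replicate. No test between libraries was therefore made, and the depth of each library is unknown.

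PU.1 is an ETS family transcription factor, best known from myeloid and B cells and from Th9 cells, that contacts DNA at a GGAA core. BATF is a basic leucine zipper factor that binds AP-1 sequences together with JUN proteins. Input is sheared chromatin sequenced without antibody, so its list holds places where fragments pile up without any immunoprecipitation. LINE-1 elements are retrotransposons whose full-length copies code for an RNA-binding protein (ORF1) and for an endonuclease and reverse transcriptase (ORF2), and most copies in the genome lack their 5′ part. Simple repeats are short units repeated in tandem.

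The values that selected the sites are given as a description. The Input summit lay at a median of 52 bp from the PU.1 summit (quartiles 21 and 112 bp), within 100 bp at 1335 sites and on the same base at 15. It lay at a lower coordinate at 869 sites and at a higher one at 981. The sites used 1855 different Input summits, so that few of them shared one. The sites just inside the limit for Input were at position 22619750 of chromosome 5 (499 bp, PU.1 score 1.99) and at position 104512013 of chromosome 7 (496 bp, score 2.73). Just outside it were summits at position 86017766 of chromosome 17 (502 bp, score 2.81) and at position 109063153 of chromosome 2 (506 bp, score 4.26). Of the PU.1 summits without BATF, 30 had the Input summit between 400 and 500 bp away and 34 between 500 and 600 bp. For BATF, the sites closest to the limit were at position 173513824 of chromosome 2 (520 bp, score 5.43) and position 70336757 of chromosome 15 (529 bp, score 3.98). PU.1 summits with Input that were left out by the smallest margin were at position 60045243 of chromosome 3 (BATF summit at 480 bp, score 25.7) and position 42924169 of chromosome X (472 bp, score 2.73). Only 10 sites had a BATF summit between 500 and 1000 bp away, and 1790 had none within 10000 bp.

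Scores are the peak caller's values, read as −log10 of the q-value within each list. The PU.1 score of the sites ran from 1.32 to 92.2 with a median of 4.26 (quartiles 3.19 and 5.43). The median of the whole PU.1 list on these chromosomes was 4.05, that of the 842 PU.1 summits with both Input and BATF was 6.70, and that of the 5022 PU.1 summits with neither was 3.61. Among the 100 PU.1 summits of highest score, 1 belonged to these sites (1.00%, exact Clopper-Pearson 95% interval 0.0253 to 5.45%), while 94.0% had both Input and BATF. The share rose to 21.0% (17.1 to 25.3%) at ranks 101 to 500 and 33.0% (28.9 to 37.3%) at ranks 501 to 1000, and was 19.4% (18.3 to 20.6%) from rank 4001 on. All intervals in this text are of this kind and cover counting error only. Sites that are neighbours or share sequence are not independent, which the intervals do not take into account. The Input summits next to the sites had a median Input score of 5.66, against 4.07 for the whole Input list, and 503 of them (27.0%) had an Input score in the highest 10% of that list. Across the sites, the rank correlation of PU.1 and Input score was 0.35 (n = 1865, as a description, since both lists share the sequence and mappability of a site).

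Nearly every site lay in repeats. In the 200 bp around the summit, more than 50% of the reference bases were masked as repeat at 1808 sites (96.9%, 96.1 to 97.7%). In windows 5000 bp to either side this share was 30.8%. It was 96.3% for the 22067 Input summits without PU.1, 90.5% for PU.1 summits with Input and BATF and 85.2% for PU.1 summits with neither. The sites fell into 3 classes by sequence. Windows that align with a LINE-1 copy made up 934 sites (50.1%, 47.8 to 52.4%), simple repeats 761 (40.8%, 38.6 to 43.1%) and other sequence 170 (9.12%, 7.85 to 10.5%). Simple repeats are windows where more than 50% of bases equal the base at a fixed distance of 1 to 6 bp before them. LINE-1 windows are those left that align over at least 100 bases at 80% identity or more. No annotation of repeat families was at hand, so other families were not named. Other sequence thus means only that neither definition was met, and part of it was joined by sequence to LINE-1 windows, as given below. Of the 170 other sites, 122 (71.8%) had more than 50% of bases masked. With a limit of 70% periodic bases, a setting applied to the other sets after the data were seen, the simple repeats fell to 15.4% (13.8 to 17.2%).

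The mixture of both classes differed between the sets. Of all windows, Input summits without PU.1 had more LINE-1 (63.7%, 63.0 to 64.3%) and few simple repeats (8.03%, 7.68 to 8.40%). PU.1 summits with Input and BATF were mostly simple repeats (63.4%, 60.1 to 66.7%) with 17.1% LINE-1 (14.6 to 19.8%). PU.1 summits with neither had 47.3% simple repeats (45.9 to 48.7%) and 25.3% LINE-1 (24.1 to 26.6%). None of these intervals overlaps that of the sites. At the limit of 70% the simple repeats of the sites and PU.1 with neither (16.6%, 15.6 to 17.7%) no longer differed beyond counting error. PU.1 with Input and BATF then had 27.2% (24.2 to 30.3%) and Input without PU.1 had 2.75% (2.53 to 2.97%). LINE-1 was named only in windows left after simple repeats, so its share of all windows depends on theirs. Of the windows outside simple repeats, LINE-1 made up 84.6% at the sites (82.3 to 86.7%). In Input without PU.1 this share was 69.2% (68.6 to 69.9%), so the order of the sites and this set was reversed. It was 46.8% in PU.1 with Input and BATF and 48.1% in PU.1 with neither. Seen from the PU.1 list, 39.0% of its LINE-1 summits (37.1 to 41.0%) belonged to the sites, against 18.6% of its simple repeats (17.5 to 19.9%) and 7.44% of its other summits (6.40 to 8.59%). From the Input list the order differed: 42.7% of the Input summits in simple repeats had PU.1 within 500 bp (40.9 to 44.4%), with 7.42% of those in LINE-1 (7.01 to 7.85%) and 5.18% of the others (4.65 to 5.74%).

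The number of copies of a site's sequence was measured as the median, over the 200 bp, of the exact occurrences of its 31-base words in the reference chromosomes and unplaced contigs. At 577 sites (30.9%, 28.8 to 33.1%) this median was 1, and at 750 (40.2%, 38.0 to 42.5%) it was above 1000. The shares of sequence with a median of 1 were 33.0% for Input without PU.1, 44.9% for PU.1 with Input and BATF and 51.8% for PU.1 with neither. The classes were far apart. LINE-1 sites had a median of 3620 copies (quartiles 1371 and 5985), simple repeats of 1 and other sites of 2. LINE-1 windows of Input summits without PU.1 had a median of 553 copies, and 14% of them had a median of 1, against 2.25% of the LINE-1 sites. LINE-1 windows of PU.1 with neither had a median of 1938 copies, and those of PU.1 with Input and BATF, with 5289, were above the sites.

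LINE-1 sites were placed on a reference copy with both reading frames intact, chosen among intact copies because it joined the most windows of the sites. It lies at chr6:27554225-27560926 on the plus strand of GRCm38, with 371 codons in ORF1 (chr6:27555225-27556340) and 1281 in ORF2. Bases are counted from the start of ORF1, so that ORF1 spans bases 1 to 1116 and ORF2 bases 1157 to 5002. The summits were in ORF1 at 411 of the 934 LINE-1 sites (44.0%, 40.8 to 47.3%), in ORF2 at 407 (43.6%, 40.4 to 46.8%), after ORF2 at 83 (8.89%, 7.14 to 10.9%), between the frames at 30 and before ORF1 at 3. Of all genomic sequence that aligns with the copy, ORF1 holds 11.8% of the aligned bases, ORF2 58.8% and the part after ORF2 23.9%. The share within ORF1 was 33.1% (32.3 to 33.9%) for Input without PU.1, 19.3% (17.2 to 21.6%) for PU.1 with neither and 18.8% (12.7 to 26.1%) for PU.1 with Input and BATF. Among LINE-1 windows, ORF1 was thus more frequent at the sites than in each of the 3 other sets, and their intervals do not overlap with that of the sites. Of the whole sets, ORF1 held 411 of 1865 sites and 4648 of 22067 Input summits without PU.1, which are close shares. It held fewer in the others, 246 of 5022 for PU.1 with neither and 27 of 842 for PU.1 with Input and BATF. Among sites with a PU.1 score above the list median the ORF1 share was 38.0% (33.7 to 42.6%), and this interval meets that of Input without PU.1.

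Within the element the sites were not spread evenly. Bases 201 to 400 held 144 sites and bases 401 to 600 held 120, together 28.3% of the LINE-1 sites (25.4 to 31.3%). The same bases held 21.4% of the LINE-1 summits of Input without PU.1 (20.8 to 22.1%) and 9.98% of those of PU.1 with neither (8.39 to 11.8%). The other steps of 200 bases with more than 40 sites were bases 601 to 800 (61 sites), 1001 to 1200 (88 sites), 2201 to 2400 (47 sites), 4801 to 5000 (89 sites) and 5001 to 5200 (74 sites). By the number of aligned genomic stretches, bases 201 to 400 had 57.9 sites for each 10000 stretches and bases 4801 to 5000 had 13.5. The adjoining bases 1 to 200 and 4601 to 4800 had 7.08 and 0.667. The last 2 of these, bases 4801 to 5200, held 17.5% of the LINE-1 sites (15.1 to 20.0%), 10.7% of the LINE-1 summits of Input without PU.1 (10.2 to 11.2%), and 38.8% of those of PU.1 with neither (36.1 to 41.5%). Among LINE-1 windows, the sites thus had a larger share at bases 201 to 600 than both of these sets. At bases 4801 to 5200 their share lay between them. Of the whole sets, bases 201 to 600 held 264 of 1865 sites and 3013 of 22067 Input summits without PU.1, which are close shares. For PU.1 with neither it was 127 of 5022.

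The 50 bases with the most summits in ORF1 were bases 351 to 400 with 53 sites, and those in ORF2 were bases 4951 to 5000 with 41. The stretches around them are shown from the reference copy, 5′ to 3′ along the element, because they surround the places with the most summits in each reading frame. Capitals mark GGAA and TTCC, the ETS core on either strand. The ORF1 stretch covers bases 301 to 450 (chr6:27555525-27555674, plus strand) and the ORF2 stretch bases 4901 to 5002 (chr6:27560125-27560226, plus strand).
ORF1 stretch: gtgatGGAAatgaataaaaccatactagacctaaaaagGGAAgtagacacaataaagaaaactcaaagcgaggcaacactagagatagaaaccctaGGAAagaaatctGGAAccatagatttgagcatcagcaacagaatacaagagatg
ORF2 stretch: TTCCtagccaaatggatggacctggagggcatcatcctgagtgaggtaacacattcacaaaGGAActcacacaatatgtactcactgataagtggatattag
The ORF1 stretch holds 4 such cores and the ORF2 stretch 2, and both stretches are shorter than 200 bases. For each 200 bases from ORF1 to the end of ORF2 the copy holds on average 2.56, and bases 4801 to 5000 hold 3. In steps of 200 bases from ORF1 on, the fullest, bases 201 to 400 and 401 to 600, hold 5 cores each, the most of any step. The same steps were also the fullest for Input without PU.1, with 1385 and 1628 summits. Bases 1001 to 1200 hold 2 cores with 88 sites, and bases 4601 to 4800 hold 3 cores with 4 sites.

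The site of highest PU.1 score in ORF1 (17.9, intergenic, at base 336) is shown as an example from the fullest part of the element, with 200 bp of the plus strand, along which the element runs, and GGAA and TTCC in capitals (chr19:59774438-59774637). Its words had a median of 2943 copies and its Input score was 35.9.
chromosome 19 site: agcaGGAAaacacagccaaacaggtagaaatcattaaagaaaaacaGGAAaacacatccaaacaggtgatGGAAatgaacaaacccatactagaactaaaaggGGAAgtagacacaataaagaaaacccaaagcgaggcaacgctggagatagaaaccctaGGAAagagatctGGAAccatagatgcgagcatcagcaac
The window holds 6 such cores.

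The LINE-1 copies under the sites were often long. Of the 910 LINE-1 sites inside an aligned genomic stretch, 458 (50.3%, 47.0 to 53.6%) were in one of 5000 bases or more, and the median length was 5174 bases. This share was 36.2% (35.4 to 37.1%) for Input without PU.1, 17.7% (15.6 to 19.9%) for PU.1 with neither and 49.3% (40.9 to 57.8%) for PU.1 with Input and BATF. Among all 203328 aligned stretches of the genome 6.44% were that long, and they hold 31.9% of the aligned bases. The median identity of these stretches at the sites was 95.2% (quartiles 91.5 and 97.5%), against 91.6% for Input without PU.1, 92.0% for PU.1 with neither and 96.7% for PU.1 with Input and BATF. Identity to the copy is in part set by its choice, since it was the copy that joined the most windows of the sites. The element was on the plus strand of the chromosome at 453 of the 934 sites. Of the 295 LINE-1 sites in an intron or exon, 100 (33.9%, 28.5 to 39.6%) had the element on the strand of the gene, and for Input without PU.1 this share was 36.8% (35.3 to 38.3%).

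The median PU.1 score along the element was 3.98 in ORF1, 4.36 in ORF2, 5.45 at the 30 sites between the frames and 4.26 after ORF2. The matched Input summits were placed on the same copy at 897 of the 934 LINE-1 sites, at 707 of these within 100 bases of the PU.1 summit along the element. They were nearer the 5′ end at 483 and nearer the 3′ end at 404. The rank correlation of PU.1 and Input score was 0.50 among LINE-1 sites, 0.18 among simple repeats and 0.28 among other sites, again as a description. LINE-1 sites had a median Input score of 7.14, against 4.84 in both other classes, whereas their median PU.1 score of 4.26 was that of the simple repeats.

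The PU.1 motif was searched as GAGGAAGT on both strands of the 200 bp. It was present at 14 sites (0.751%, 0.411 to 1.26%), against 0.992% of the windows 5000 bp away, 0.829% of the Input summits without PU.1 (0.714 to 0.958%), 0.713% of PU.1 with Input and BATF and 0.498% of PU.1 with neither. The share at the sites lay within the counting error of the flanks (0.699 to 1.36%), and it was 1.55% in windows of 400 bp. In 13 of the 14 sites the motif was in LINE-1, and in 12 of these it was at the same place of the element. The reference copy holds the motif once between the start of ORF1 and the end of ORF2, and this place is in ORF2. Of the 14 LINE-1 sites whose window covers it, 12 hold the motif. No site in a promoter held it.

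The ETS core GGAA alone was in 65% of the sites (62.8 to 67.2%) and in 87.4% of the flanking windows (86.3 to 88.4%). It was in 87.5% of Input without PU.1 (87.1 to 87.9%), 44.4% of PU.1 with Input and BATF (41.0 to 47.8%) and 64.6% of PU.1 with neither (63.3 to 65.9%), the last close to the sites. By class it was in 95.4% of LINE-1 sites, 25.9% of simple repeats (22.8 to 29.2%) and 72.9% of other sites. In PU.1 with neither these shares were 94.6%, 44.7% (42.7 to 46.7%) and 71.3%, so that simple repeats differed and the other classes were close. For LINE-1 the share was 94.4% in Input without PU.1 and 93.8% in PU.1 with Input and BATF. For simple repeats it was 28.0% (25.9 to 30.1%) and 24.7% (21.1 to 28.6%) in these sets, both close to the sites. The AP-1 sequence TGACTCA, the binding site of BATF with JUN proteins, was in 1 site (0.0536%) and in 3.03% of the flanks. The shares were 0.544% for Input without PU.1, 0.238% for PU.1 with Input and BATF and 0.757% for PU.1 with neither. The 15-letter IRF8 motif that the study derived from IRF8 peaks was in 23.1% of the sites (21.2 to 25%), 5.76% of their flanks and 5.61% of Input without PU.1, and it was in 36.1% of PU.1 with Input and BATF and 38.4% of PU.1 with neither. By class it was in 54.7% of the simple repeats and in 0.214% of the LINE-1 sites. Across all PU.1 summits on these chromosomes, windows of the same length held GAGGAAGT at 0.548%, GGAA at 60.6%, TGACTCA at 0.525% and the IRF8 motif at 33.7%.

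The simple repeats were named by their unit, reading both strands and all rotations as the same unit. AC was found at 334 sites (17.9%, 16.2 to 19.7%), AGAT at 148 (7.94%, 6.75 to 9.26%), AAAG at 103 (5.52%, 4.53 to 6.66%), ACAT at 48, AAG at 33 and AG at 24. More than 70% periodic bases were found at 8.68% of the AC sites, 61.5% of AGAT and 78.6% of AAAG. At that limit AC was therefore less frequent than AGAT and AAAG. AC was at 29.3% of PU.1 with Input and BATF (26.3 to 32.5%), 20.8% of PU.1 with neither (19.7 to 22.0%) and 2.20% of Input without PU.1 (2.01 to 2.40%). AGAT was more frequent at the sites than in the other PU.1 sets, with 0.713% of PU.1 with Input and BATF (0.262 to 1.54%) and 1.17% of PU.1 with neither (0.896 to 1.51%). In Input without PU.1 it was at 3.11% (2.88 to 3.35%). Of the 213 PU.1 summits in AGAT repeats, 69.5% (62.8 to 75.6%) belonged to the sites, the largest share among the 6 units, while 13.5% of the AAAG summits (11.2 to 16.1%) and 12.0% of the AG summits (7.84 to 17.3%) did. AAAG was in turn more frequent in PU.1 with neither (11.2%, 10.4 to 12.1%) than at the sites. The telomere-type unit AACCCT, at 57 PU.1 summits with Input and BATF (6.77%, 5.17 to 8.68%), was at 1 of the sites. From the Input list, a PU.1 summit was near 64.1% of the AAG repeats (55.1 to 72.3%), 55.2% of AC (52.2 to 58.2%), 53.2% of AAAG (47.4 to 59.1%) and 18.7% of AGAT (16.1 to 21.5%).

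The repeats differed in how regular they were. The longest exact run of the unit in the 400 bp around the summit had a median of 12 bp at AC sites, 20.5 bp at ACAT, 49 bp at AGAT, 54 bp at AAAG and 66 bp at AAG. AC sites were long but broken repeats: the share of periodic bases had a median of 62.6% over 200 bp, and 93.4% of them also passed 50% over 400 bp. At AAG sites the median share was 88.1%. The summit was inside the longest run at 2.69% of AC sites (1.24 to 5.05%), 18.2% of AGAT (12.4 to 25.4%), 25.2% of AAAG (17.2 to 34.8%) and 24.2% of AAG (11.1 to 42.3%). At the others it lay beside the run, at a median over all sites of the unit of 106 bp for AC, 61 bp for AGAT, 36 bp for AAAG and 31 bp for AAG. GGAA was in 95.1% of AAAG sites, 45.5% of AAG, 10.8% of AGAT and 7.49% of AC. In AAG repeats it was in 80.1% of PU.1 with neither, 80.4% of Input without PU.1 and 55.3% of PU.1 with Input and BATF. The median PU.1 score of the sites was ordered differently from their GGAA shares, with 6.70 for AAG, 5.43 for AAAG, 4.26 for AC, 4.10 for ACAT and 3.97 for AGAT. The median Input score was 7.42 for AAG, 6.51 for AGAT, 5.88 for AAAG and 4.84 for both AC and ACAT. AGAT sites thus combined the lowest median PU.1 score of these 5 units with the second highest Input score.

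The sites of highest PU.1 score in AGAT and AAAG repeats are shown, with 200 bp of the plus strand and the longest exact run within them in capitals, to show what kind of sequence the summits lie in. They are chr10:107713748-107713947 for AGAT (PU.1 score 9.83, in an intron of Ptprq) and chr5:37866993-37867192 for AAAG (20.8, intergenic).
AGAT site: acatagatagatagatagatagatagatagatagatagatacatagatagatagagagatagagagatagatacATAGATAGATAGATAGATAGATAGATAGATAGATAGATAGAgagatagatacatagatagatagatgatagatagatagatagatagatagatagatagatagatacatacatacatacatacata
AAAG site: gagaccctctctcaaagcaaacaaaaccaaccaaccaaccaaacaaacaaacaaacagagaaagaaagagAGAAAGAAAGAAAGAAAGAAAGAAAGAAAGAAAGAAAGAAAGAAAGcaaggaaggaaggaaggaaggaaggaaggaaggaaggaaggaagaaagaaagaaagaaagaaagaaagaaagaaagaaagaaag
The Input summits of these sites were 115 and 9 bp away, with Input scores of 17.8 and 16.9.

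Among the 170 other sites, 28 (16.5%, 11.2 to 22.9%) were tandem repeats of a longer unit, taken as 7 to 80 bp with more than 70% of bases repeated over 400 bp. This class was set up after the values were seen. Another 17 (10.0%, 5.93 to 15.5%) were GC-rich and unmasked, that is, had at least 65% GC and less than 25% masked bases, and in the rest 56 windows had a median of 1 genomic copy and 59 a median above 1 and up to 100. GC-rich unmasked windows made up 37.3% of the other summits of PU.1 with neither (34.8 to 40%) and 17.7% of those of PU.1 with Input and BATF (12.2 to 24.4%), but 1.15% of those of Input without PU.1 (0.903 to 1.45%). As a share of the whole set they were 0.912% of the sites, 10.2% of PU.1 with neither, 3.44% of PU.1 with Input and BATF and 0.326% of Input without PU.1.

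The highest PU.1 score of all sites, 92.2, was in such a longer repeat on chromosome 4 at position 118547968, an intergenic place 3924 bp from Tmem125. Its unit is 44 bp long and its GC content is 64.5%. None of its bases are masked, and its words had a median of 8 copies. The Input summit was 15 bp away with a score of 96.5. Goat Ig and rabbit Ig summits were 12 and 50 bp away, with scores of 3.60 and 8.94, and a BATF summit was 554 bp away, just beyond the limit. The second highest PU.1 score was 21.3, so that this site stood apart from all others. The window is chr4:118547868-118548067 (plus strand), with the first unit in capitals.
chromosome 4 site: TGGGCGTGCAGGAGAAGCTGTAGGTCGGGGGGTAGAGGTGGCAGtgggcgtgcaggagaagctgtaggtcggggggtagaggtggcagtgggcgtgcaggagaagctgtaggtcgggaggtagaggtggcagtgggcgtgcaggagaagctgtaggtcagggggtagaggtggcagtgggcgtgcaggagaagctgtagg
Longer repeats also held the highest Input score of all sites, 108, at position 34544829 of chromosome 11 in an intron of Dock2, where the PU.1 score was 3.07. Further examples were at position 96044801 of chromosome 3 in an intron of Vps45 (unit of 68 bp, PU.1 score 7.78, Input score 95.5) and at position 3029939 of chromosome 17 (21 bp, 7.81 and 82.9).

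The other 9 of the 10 highest PU.1 scores were in AAAG repeats and LINE-1. AAAG repeats were at position 37867093 of chromosome 5 (20.8), position 90848091 of chromosome 14 (20.0), position 51380167 of chromosome 19 (18.5), position 119457459 of chromosome 2 in an intron of Ino80 (17.2) and position 42321477 of chromosome 12 (16.6). LINE-1 was at position 70756324 of chromosome 4 (21.3, base 5037 of the element), in an intron of Me2 on chromosome 18 (position 73773787, 19, base 4982), at position 59774538 of chromosome 19 (17.9, base 336) and at position 56905861 of chromosome 3 (16.3, base 1231). Those without a gene named were intergenic. In 8 of the 9 the Input summit was within 35 bp, and at position 90848091 it was 57 bp away. None of the 9 had a goat Ig or rabbit Ig summit within 10000 bp.

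The planned grouping of the 1104 windows outside simple repeats by shared sequence joined 1006 of them (91.1%) into a single family, in which all 934 LINE-1 sites lay. The places along the element were therefore added after this was seen. The rest of the family of 1006 were sites of the other class, linked to it by sequence without aligning with the copy at the limits used. The other families were 1 of 10 sites, 2 of 3 and 3 of 2, and 76 windows were joined to no other. The family of 10 had its highest score, 8.79, at position 145687276 of chromosome 4 in an intron of Zfp980. A family of 3 had it at position 3161947 of chromosome 11 in an intron of Sfi1 (9.88), another of 3 at position 123873045 of chromosome 9 (8.05) and a family of 2 at position 7938066 of chromosome 16 (5.26).

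Most sites stood alone. With sites closer than 10000 bp joined, 1795 (96.2%) had no neighbour, 70 were in 34 clusters, and 2 clusters held 3 sites. Those 2 were at the start of chromosome 11 (3146490 to 3161947, in Sfi1) and on chromosome 5 (118357868 to 118377181, all AC repeats). With a further cluster of 2 sites, the 52911 bp from 3146490 to 3199400 of chromosome 11 held 5 sites, among 9 PU.1, 16 Input, 3 BATF, 0 goat Ig and 1 rabbit Ig summits. By chromosome the density ran from 54.3 sites for each 100 Mb on chromosome 14 to 101 on chromosome 10. Chromosome X had 103 sites (5.52%, 4.53 to 6.66%), or 63.0 for each 100 Mb, although it had the highest density of all Input summits, 1371, and the lowest of all PU.1 summits, 243. In Input without PU.1, 9.49% lay on X (9.11 to 9.88%). Of the LINE-1 sites 8.67% were on X (6.95 to 10.7%), against 12.7% of all genomic bases that align with the copy, and of the simple repeats 1.31% (0.632 to 2.40%).

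By gene annotation, 1127 sites were intergenic (60.4%, 58.2 to 62.7%), 681 in introns (36.5%, 34.3 to 38.7%), 35 in promoters (1.88%, 1.31 to 2.60%) and 22 in exons (1.18%, 0.741 to 1.78%). A promoter is the 1000 bp upstream of a transcription start. Promoters held 33.2% of the 1030 PU.1 summits with BATF and no Input (30.3 to 36.2%), 9.21% of all PU.1 summits (8.62 to 9.84%), 7.93% of PU.1 with neither (7.19 to 8.71%), 3.80% of PU.1 with Input and BATF (2.61 to 5.32%) and 1.44% of Input without PU.1 (1.29 to 1.61%), whose interval overlaps that of the sites. LINE-1 sites were intergenic more often (67.2%, 64.1 to 70.2%) than simple repeats (55.3%, 51.7 to 58.9%), and other sites were in promoters or exons at 6.47% and 7.06%. The exonic sites were in coding sequence at 8, in untranslated exon parts at 8 and in exons of non-coding genes at 6. Promoter sites with the highest PU.1 score, picked after the values were seen, were at the pseudogene Gm47356 (14.4, LINE-1), the pseudogene Gm48064 (11, AAAG), the antisense gene Gm12735 (8.48, other sequence) and Kif13a, which codes for a kinesin motor (7.35, AGAT). In all, 673 genes had a site in their promoter, exons or introns, 527 of them protein-coding, and 53 had 2 or more.

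Of all 21728 protein-coding genes on these chromosomes, taken with 10000 bp to either side, 3.69% had a site (3.44 to 3.95%), 19.6% a PU.1 summit and 25.5% an Input summit. Genes of fixed lists were counted in the same way, and with so few genes no difference from all genes was tested. Of 35 genes of T helper cytokines and receptors, 2 had a site, 9 had any PU.1 summit and 13 an Input summit. Neither Il9 nor Il21 was among the 2 or the 9, and only Il9 of this pair was among the 13. The publication reports PU.1 binding at the promoters of both genes. Of 50 ETS, IRF, AP-1 and lineage factors 0 had a site, 18 had a PU.1 summit and 16 an Input summit. Of 17 T cell genes 1 had a site and 3 a PU.1 summit, and of 21 markers of other cell types, myeloid and B cells among them, 1 had a site and 4 a PU.1 summit. All 4 sites at listed genes were in repeats. Il10ra, a chain of the IL-10 receptor, had a site in an AC repeat 9862 bp upstream (chromosome 9, position 45279011, PU.1 score 7.91, Input score 4.84). Il2ra, the α chain of the IL-2 receptor, had a LINE-1 site in an intron (chromosome 2, position 11668808, base 4782 of the element, PU.1 score 3.37, Input score 4.60). Pax5, a B cell factor, had an AC repeat in an intron (chromosome 4, position 44639911, PU.1 score 5.43, Input score 2.13, 376 bp apart). Lck, the kinase that starts T cell receptor signalling, had an AGAT repeat upstream of its annotated start (PU.1 score 7.68, Input score 15.7).

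The control immunoglobulins, whose lists the choice of sites did not use, seldom had a summit at them. The choice was still not independent of these lists, because leaving out BATF also left out most PU.1 summits near an Ig summit. Of all 8759 PU.1 summits, 144 were near either Ig (1.64%, 1.39 to 1.93%), and 116 of these had both Input and BATF. Goat Ig was within 500 bp of 3 sites (0.161%, 0.0332 to 0.469%) and rabbit Ig of 7 (0.375%, 0.151 to 0.772%), with 9 sites near either (0.483%, 0.221 to 0.914%). With the distance for Input and BATF set to 100 bp, which also admits summits with BATF farther away than that, the share near either was 0.972%. PU.1 summits with Input and BATF had goat Ig at 10.2% (8.25 to 12.5%) and rabbit Ig at 12.0% (9.88 to 14.4%). For PU.1 with neither these shares were 0.0796% and 0.0398%, and for Input without PU.1 0.0861% and 0.0680%. These Ig lists are short, with 226 and 224 summits, against 25194 for Input. Of the 9 sites, 4 were LINE-1, 4 other sequence and 1 an ACAT repeat. The highest Input score among the LINE-1 sites, 50.6, was at 1 of them, at position 35962271 of chromosome 6 with rabbit Ig 11 bp away. Whether the short Ig lists reflect depth was not tested.

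The GC content of the sites had a median of 37%, with 37.5% for LINE-1, 34.5% for simple repeats and 38.3% for other sites. AGAT repeats had the lowest median among the units, 28.5%, and AG the highest, 46.0%. In the compared sets the median was 36.0% for Input without PU.1 and 40% for each of the other 2.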

How the data were processed

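Lists of 1 bp summits from 5 libraries of Th9 cells were used. The authors deposited a score for each summit, read as −log10 of the q-value because no score is below −log10 of 0.05, used here to rank within a list. The submitters' processing notes name Bowtie2 and mm10. The peak names in the lists are those of MACS2, whereas the publication names FindPeaks as caller, so the reading of the score is not certain. Alignment settings, control and caller options are not given in the sources used here and could change which repeats carry summits. Depth is unknown, and no comparison between libraries was tested. The members and lists were chosen with earlier results of these data known. Coordinates are 1-based on GRCm38, genes from GENCODE M21. Named are the 10 highest PU.1 scores, the highest in AGAT and AAAG repeats and in 5 of the largest families, promoter sites with the motif (up to 10) and sites at listed genes (up to 15). Other names were chosen after values were seen. LINE-1 places were added after seeing the data, using BLAST 2.17.0. Counting used Python 3.11.15, numpy 2.4.6, pandas 2.3.3, scipy 1.17.1 and numba 0.67.0, and was tested on simulated data. Alternatives covered distance, score, window, neighbours, Ig summits, motif, annotation and identity.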

Additional observations from a re-analysis of the deposited data

How the results depend on the processing

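Of 82 alternative values for the sites, 61 stayed within 1.5 times the count or within the 95% interval of the share as reported, and 21 did not. A limit of the same base for both Input and BATF gave 22 summits, including some with BATF nearby that are not among the sites. Of the 22 summits, 95.5% were masked, 27.3% simple repeats, 0% with the PU.1 motif, 54.5% intergenic, 22.7% near an Ig summit and 45.5% LINE-1, with 40% of these in ORF1. Such small numbers follow from the setting. With PU.1 scores above the list median, 973 sites were left, 44.3% were simple repeats and 38.0% of the LINE-1 sites were in ORF1. At a distance of 100 bp for both, which likewise admits other summits, 0.972% were near an Ig summit and 40.1% of LINE-1 sites were in ORF1. More than 70% periodic bases left 15.4% simple repeats. The motif share was 1.55% in windows of 400 bp, 1.93% for AGGAAGT and 65% for GGAA. With protein-coding genes only, 68.4% were intergenic. Leaving out sites near Ig summits set their share to 0% by construction. At 90% identity, 40.1% were LINE-1 and the largest family held 86.1% of the windows. The LINE-1 alternatives were added after seeing the data. Other causes of these moves were not tested. The lists hold no reads, so neither the depth nor the placing of reads with several matches can be judged, and a summit in a copied sequence may stand for more than the copy it was assigned to. With 1 library per target, variation between cultures was not measured.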

Other observations

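The 8 sites in coding sequence were all outside simple repeats and LINE-1, and 7 of them were of high GC content in sequence with a median of 1 copy. Those 7 were in Tmem64 (GC 83%, PU.1 score 6.70), Zfp771 (75.5%, 4.35), Zc3hav1l (79%, 4.05), Cntln (75%, 3.86), Fam117b (81%, 3.37), Tbc1d12 (79%, 3.15) and Sema6b (74%, 2.25). The remaining site was in Muc6, a mucin gene (50.5%, 4.77). In untranslated exon parts the highest PU.1 scores were at Tox2, an HMG-box transcription factor gene (7.93), at Mid1, in a repeat with a unit of 31 bp (7.54), and at Ext2 (7.35, GC 80%). These names were chosen after the values were seen.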
